A study of Drosophila melanogaster with 3 samples.

Results

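Intergenic distal summits of Hr3 binding are the points of highest signal in reproducible peaks that lie outside every annotated gene and more than 500 bp from any transcription start site (TSS). They were picked from the authors' list of reproducible peaks on the dm6 assembly by position alone, with genes of every kind except transposable elements taken from the Ensembl annotation BDGP6.54. Of the 5357 summits in the list, 709 met the rule. That is 13.2%, and the exact binomial interval at 95%, which covers counting error only, ran between 12.3% and 14.2%. The material was whole embryos of Drosophila melanogaster collected 0 to 24 h after egg laying, with males and females pooled, from a transgenic line of strain Hr3-GFP. The line stably expresses Hr3, also called Hr46, with green fluorescent protein (GFP) at its C-terminus, and the sample descriptions give an antibody against GFP for the precipitation, while the antibody label names Hr3. There was 1 group of 3 replicates, labelled as biological, with no other condition to compare it with. The whole animals of all ages were pooled, so binding in few cells and weak binding in many cannot be told apart. The files hold peaks and no reads, so depth is unknown. Flies without the tag were not analysed here.

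Hr3 is a nuclear receptor that is induced in the ecdysone response and takes part in the switch to the next regulatory step of a pulse of the hormone. Its relatives in mammals are the ROR receptors, orphan nuclear receptors that bind DNA as monomers at the ROR response element (RORE), the half-site AGGTCA or a close form of it preceded by A- and T-rich bases. Sequence between genes can hold enhancers, silencers, insulators and promoters that the annotation lacks, and in flies the regulators of development are known for long flanking sequence of this kind. A summit between genes does not show which gene, if any, it acts on.

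The sites printed here show the range of sequence at or near these summits, read from the RefSeq sequence of the same genome assembly as dm6. The first 3, members of rank 2, 4 and 5 by signal, 101 bases centred on the summit, are shown because they are among the strongest members and hold no match to the RORE as searched here, which is AANT or ATNT followed directly by AGGTCA or GGGTCA. In these lines capitals mark AGGTCA, which is present in the line of lncRNA:CR45695 alone. Names give the gene with the nearest TSS, and lines are on the plus strand.
lncRNA:CR45695, chr2L:1638739-1638839: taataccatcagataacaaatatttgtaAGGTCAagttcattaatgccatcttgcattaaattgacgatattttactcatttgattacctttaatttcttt
lncRNA:CR45643, chr3R:16222441-16222541: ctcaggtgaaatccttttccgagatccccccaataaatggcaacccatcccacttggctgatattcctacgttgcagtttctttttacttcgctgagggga
sp3, chr3R:21520328-21520428: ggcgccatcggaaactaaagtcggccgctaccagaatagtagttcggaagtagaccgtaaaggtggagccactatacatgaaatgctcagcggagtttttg

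The next 3 are the strongest members with a RORE within 100 bp of the summit, in capitals, with 20 bases on either side. The element lay 78 bp from the summit at vvl, 24 bp at Glut4EF and 10 bp at wb. The called peak at vvl runs from 6816379 to 6816493, so its element lies outside the peak. The lines of vvl and wb are on the plus strand, and that of Glut4EF is on the minus strand.
vvl, chr3L:6816340-6816389: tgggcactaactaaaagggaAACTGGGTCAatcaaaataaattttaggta
Glut4EF, chr3R:9872470-9872519: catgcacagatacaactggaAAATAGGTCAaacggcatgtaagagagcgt
wb, chr2L:14252663-14252712: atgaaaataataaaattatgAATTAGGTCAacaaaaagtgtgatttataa

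Sequence that could hold such a summit, called eligible below, came to 36.3 Mb or 27.1% of the genome, and the 709 summits lay in it at 19.6 per Mb. The share of intergenic distal summits was similar in each replicate taken alone. Among the 5357 strongest peaks of each replicate it was 12.8%, 12.7% and 13.3%, with a mean of 12.9% ± 0.314 (SD, n = 3). The rest of the reproducible list held 2758 promoter summits, 1786 distal intronic summits and 104 distal exonic summits. Of the 709 members 696 had a peak over the summit in all 3 relaxed lists, which keep weak peaks. The same held for 5257 of all 5357 summits. The list was thresholded for reproducibility, so this count is no separate check of the members. A peak was missing for 10 members in replicate 1, for 2 in replicate 2 and for 3 in replicate 3.

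Intergenic distal summits carried less signal than promoter summits in each replicate. Signal is the authors' peak strength, and each replicate's values were divided by its own median at the reproducible peaks to give a relative signal. The median relative signal of the intergenic distal summits was 0.894, 0.838 and 0.895 in replicates 1, 2 and 3. Promoter summits had 1.09, 1.09 and 1.07 and distal intronic summits had 0.937, 0.926 and 0.941, so the 3 positions did not overlap. On the log2 scale the intergenic distal median stood at -0.31 ± 0.07 (SD, n = 3) against promoter summits and at -0.09 ± 0.04 (SD, n = 3) against distal intronic summits. The two-sided exact sign-flip permutation test gave p = 0.25 for both, which is the smallest p that 3 replicates allow, so no call can be made. In the reproducible list itself the signal of the members had a median of 160.4, quartiles of 126.3 and 233.7 and a range from 105.5 to 1928. Their relative signals varied between replicates with a median coefficient of variation of 18.1%, against 16.7% for distal intronic summits and 15.7% for promoter summits.

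The weight of intergenic distal sites depended on how far down the peak lists one reads. They were 5 of the 100 strongest reproducible peaks, 35 of the strongest 500 and 80 of the strongest 1000, which is 5%, 7% and 8%. In the full relaxed lists of the replicates, cut by signal into 5 equal classes, their share was 22.1% ± 0.970 in the weakest class, 20.9% ± 0.664 in the middle class and 12.8% ± 0.224 in the strongest (SD, n = 3). The share of promoter summits ran the other way, with 19.5% ± 0.647 in the weakest class and 51.8% ± 0.600 in the strongest. Even in the weakest class the intergenic distal share was below the 27.1% of the genome that is eligible.

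**Figure D1:**
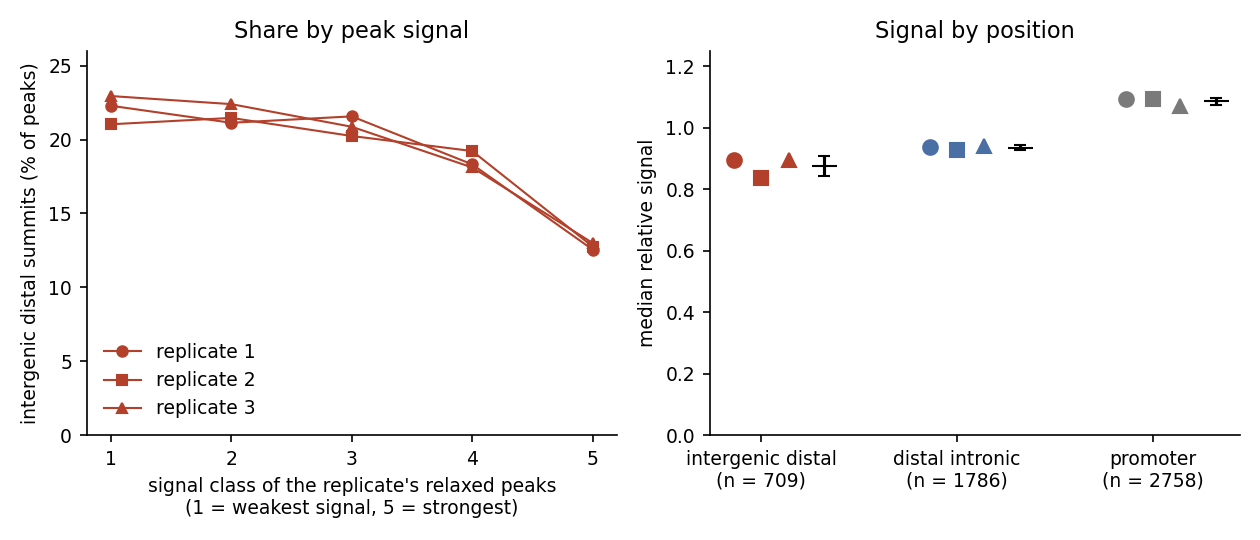
Left, the share of intergenic distal summits in percent of peaks, in 5 equal classes of each replicate's relaxed list from weakest to strongest, with a line for each replicate. Right, the median relative signal of intergenic distal, distal intronic and promoter summits in each of the 3 replicates, with the mean and SD in black; the intergenic distal values lie between 0.838 and 0.895.

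Several of the strongest members lay beside Polycomb-group genes. The highest stood between Su(z)2 and CG13323 at 2R from 13035128 to 13035571, with relative signals of 10.5, 10.4 and 10.4. It was 11915 bp from the nearest TSS, that of CG13323, and ranked 11 among all reproducible peaks. From the end of Su(z)2 it lay 27430 bp. Su(z)2 encodes a Polycomb-group protein, a class of proteins that keep developmental genes silent. Its relative Psc and the polyhomeotic genes ph-d and ph-p, which encode subunits of Polycomb repressive complexes, were also beside strong summits. The summit between ph-d and ph-p, 806 bp upstream of a ph-d TSS, had 4.10, 4.81 and 5.61. Between CG13321 and Psc stood a summit with 4.40, 4.43 and 4.69 and another with 3.84 and 4.86 in replicates 2 and 3 and no peak in replicate 1. These 4 genes flanked 8 members, and 4 of the 20 strongest, a set put together after the values were seen. Psc and Su(z)2 lie near each other on arm 2R, and the ph genes are neighbours on X. The 4 genes thus stand for 2 loci. The 2 ph genes are near copies of each other, and reads that fit both could have been placed at either.

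Cell cycle, neural and patterning genes flanked other strong members. Near chinmo, which encodes a zinc finger protein of neuronal temporal identity, the summit nearest to lncRNA:CR45695 had 5.36, 7.02 and 6.53 and lay 8374 bp from that TSS. The same gap between RFeSP and chinmo held 2 more of the 20 strongest, 1 of them 1846 bp upstream of chinmo with 3.45, 3.50 and 3.81. Between the 3' ends of blw and CycB, the gene of the mitotic cyclin B, a gap of 1340 bp held a summit with 6.16, 5.92 and 5.95. Upstream of tara, a gene of the trithorax group, a summit near lncRNA:CR45643 had 4.06, 5.71 and 5.18. The summit 550 bp upstream of sp3 and downstream of the homeodomain gene C15 had 5.74, 5.32 and 4.68. Upstream of foxo, the transcription factor restrained by insulin signalling, a summit at 3329 bp had 3.97, 4.14 and 4.43. The rhodopsin gene Rh5 had a summit 1424 bp upstream with 3.31, 4.55 and 4.22. Between the forkhead genes slp1 and slp2, which act in segmentation, a summit had 3.40, 3.43 and 4.03.

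Over the 20 strongest, which lay in 16 gaps, signals in the reproducible list ran from 646.3 to 1928. Divergent genes flanked 10 of them, tandem genes 6 and convergent genes 4, against 32.6%, 49.2% and 18.1% of all members. They lay between 550 and 19155 bp from the nearest TSS with a median of 3515 bp. On the upstream side lay 11 of 20, against 64.6% of all members. None of the 20 had a match to the RORE as searched within 100 bp of the summit, and 2 had AGGTCA. Over all members the shares were 1.13% and 3.39%, so no difference can be read from counts in 20 summits. Among those with a peak in all 3 replicates the coefficient of variation had a median of 5.92% and a maximum of 16.9%.

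**Figure D2:**
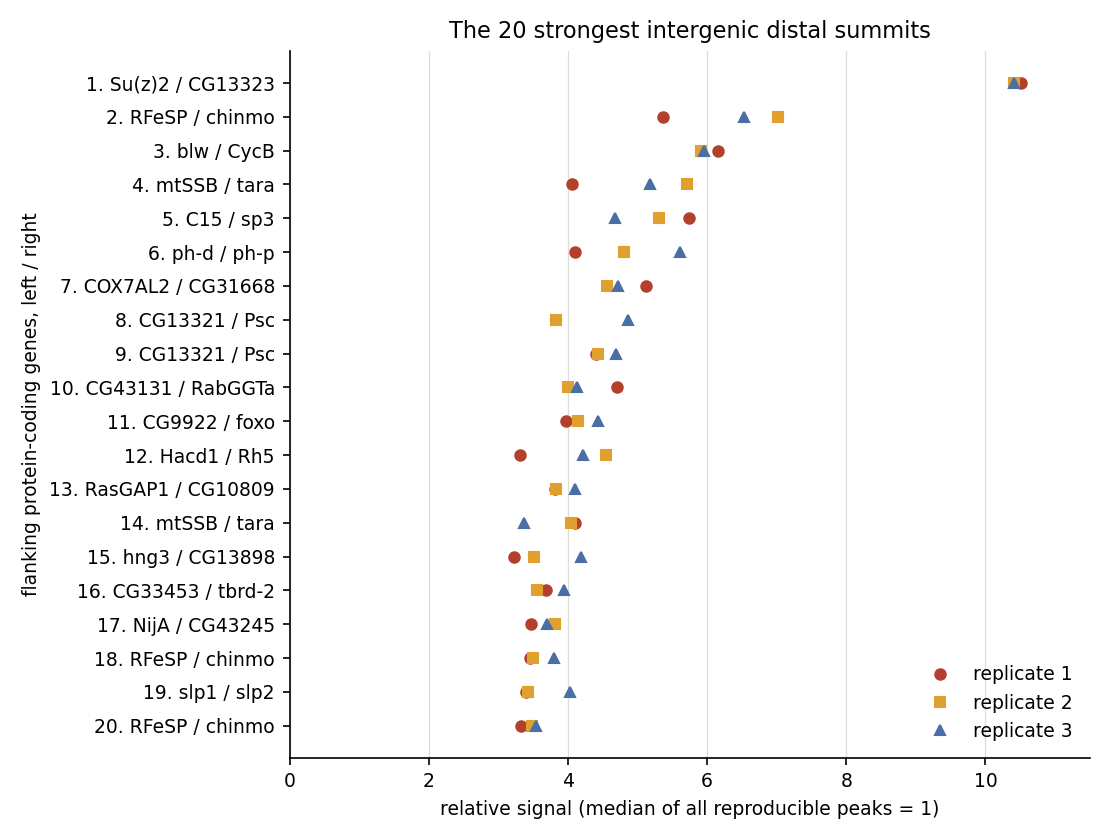
Relative signal in each of the 3 replicates for the 20 strongest intergenic distal summits, named by the protein-coding genes to their left and right and ordered by signal in the reproducible list. The summit between Su(z)2 and CG13323 stands near 10.4 in each replicate, and the others lie between 3.23 and 7.02.

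Intergenic distal summits gathered close to genes, although the rule had removed the 500 bp around each TSS. The median distance to the nearest TSS was 2849 bp, against 5886 bp over all eligible bases, with quartiles of 1254 and 5867 bp against 2431 and 15940 bp. In the replicates' own lists the median was 2648, 2615 and 2726 bp. Density was 46.0 summits per Mb at 500 to 1000 bp from a TSS, 32.9 at 1000 to 2000 bp, 24.96 at 2000 to 5000 bp, 16.2 at 5000 to 10000 bp, 13.8 at 10000 to 20000 bp and 2.58 beyond 20000 bp. The replicates' lists gave 47.7 ± 0.204 per Mb in the nearest class and 2.20 ± 0.342 in the farthest (SD, n = 3). Without replicate 1 or replicate 2 the farthest class had 1.55 per Mb, in a list with fewer peaks. Sequence beyond 20000 bp made up 21.4% of eligible bases and held 20 members. Annotated transposable elements covered 17.0% of that sequence, and with them left out its density was 3.11 per Mb. Median signal differed less than density, with 168.1 in the nearest class and 152.4 in the farthest.

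**Figure D3:**
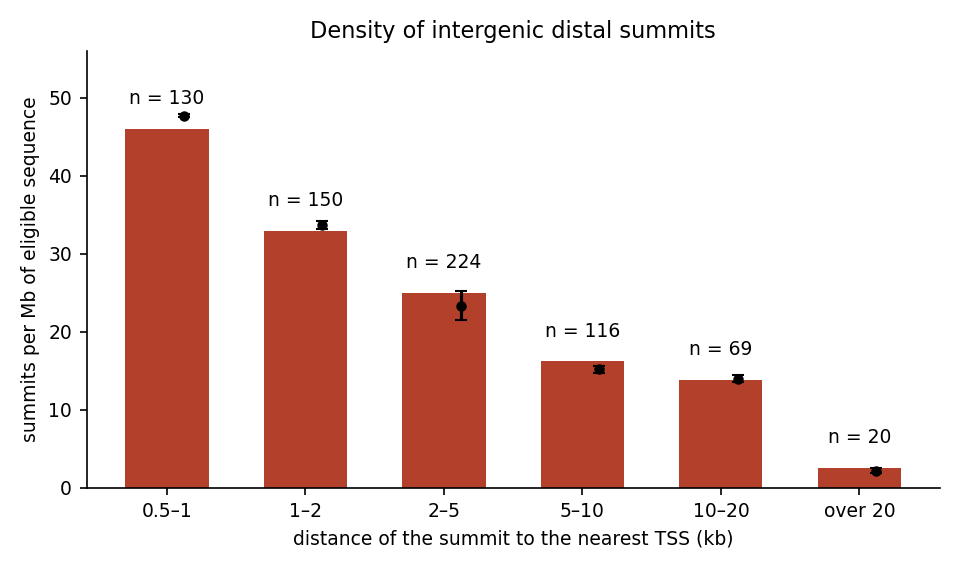
Bars give intergenic distal summits of the reproducible list per Mb of eligible sequence, by distance to the nearest TSS in kb, with the number of summits above. Points and error bars give the mean and SD over the 3 replicates' own lists; density is 46.0 in the nearest class and 2.58 in the farthest.

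By the nearest TSS, upstream sites were somewhat more common than the layout of eligible sequence gives, though not at every distance. Of the members, 458 or 64.6% lay on the upstream side of the gene with the nearest TSS, with an exact interval of 61.0% to 68.1%, against 58.8% of eligible bases. The replicates gave 65.8%, 64.3% and 64.9%. The excess was largest at 2000 to 5000 bp, where 65.6% of 224 summits were upstream against 57.7% of eligible bases. At 500 to 1000 bp the shares were 81.5% and 80.0%. At 5000 to 10000 bp they were 50.9% and 53.2%, and at 10000 to 20000 bp 43.5% and 50.3%. With the TSS distance at 1000 bp the upstream share was 60.8% of summits against 57.0% of eligible bases. Between tandem genes, 155 of 349 members lay nearer to the gene that starts at the gap (44.4%, interval 39.1% to 49.8%). The rule leaves out 500 bp beside that gene start, and this share has no eligible share to be read against.

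Density also differed with the orientation of the protein-coding neighbours. Between divergent genes, where both neighbours start towards the gap, density was 27.2 summits per Mb, from 231 members. Between tandem genes it was 19.5 per Mb from 349 members, and between convergent genes it was 16.1 per Mb from 128 members. The replicates' lists gave 26.8 ± 0.934, 19.0 ± 0.295 and 15.5 ± 0.644 per Mb (SD, n = 3), so the 3 classes differed by more than the spread between replicates. That spread covers repeat calls over the same sequence and not the variation between regions. Orientation was not separated from distance to the TSS.

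Many members shared a gap between protein-coding genes. Of 5532 gaps with eligible sequence, 434 held a member, and 140 of these held several, with 58.5% of all members among them. The 15 gaps with at least 5 members held 103. Gaps with a member were long, with a median of 10986 bp against 1432 bp for gaps without. By length, however, density was highest in gaps of up to 5000 bp, at 42.6 per Mb, and lowest in gaps over 50000 bp, at 5.91 per Mb. Within 1000 bp of another reproducible summit lay 156 members, and 6 shared their peak with another summit. Such neighbours can fall under the same relaxed peak of a replicate, so their signals are not separate measurements.

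The gaps with the most members described here were on arms 3L and 2L. The gap between CG7320 and CheA75a held 12 in 48450 bp, and the replicates' own lists placed 10, 11 and 11 summits there. CG7320 and the gap on its other side separate it from hid, a gene of programmed cell death. The gap between NijA and CG43245 held 10, with 9, 10 and 9 in the replicates, and was headed by a summit 19155 bp from CG43245 with relative signals of 3.47, 3.82 and 3.71. The 10 between CG44362 and CG7560 appeared as 6, 9 and 9, with the strongest at 2.69, 3.21 and 3.58. The gap of RFeSP and chinmo held 8, found as 7, 8 and 9. Between noc, which encodes a zinc finger protein of head and tracheal development, and CG33648 there were 7, found as 7, 8 and 5. The gap of vvl and Prat2 held 7 as well, in 117057 bp, with a weaker leading summit than the other gaps described.

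The 6 members farthest from any TSS ranged widely in strength, from rank 25 to rank 681 of the 709 by signal. The farthest lay 56716 bp from lncRNA:CR46250 at 3L from 27422476 to 27422935, with 0.793, 0.630 and 0.552, and this member held a RORE. In the gap of NijA and CG43245 summits lay at 36644, 32988 and 31864 bp. The last of these had 1.02, 1.81 and 3.35, a mean of 2.06 ± 1.18 (SD, n = 3), the widest spread of the 6. The summit 33875 bp downstream of a vvl TSS, between the tracheal and neural POU factor vvl and Prat2, had 1.21, 1.70 and 1.76. The summit 30490 bp downstream of rpr, a trigger of programmed cell death, had 0.238, 0.653 and 0.615. All 6 were on arm 3L.

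The nearest TSS belonged to a protein-coding gene for 471 members and to a non-coding RNA gene for 215. The non-coding share was 30.3% of members against 26.1% of eligible bases. A tRNA gene was nearest for 19 members, 2.68% against 0.907% of eligible bases, and a pseudogene for 2, 0.282% against 5.43%. Annotated transposable elements held 4 members, 0.564% with an interval of 0.154% to 1.44%, against 10.9% of eligible bases. The replicates' lists placed 4, 6 and 5 summits in them. Reads in repeats can be hard to place, and whether the authors' alignment left out such reads is not given in the sources used here, and its part in this share was not tested.

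At the edge of the rule, the nearest members lay upstream of Msr-110 at 501 bp with a signal of 373.1 and of so and CG42331, both at 502 bp, with 203.2 and 171.1. Just outside stood summits of CG43066 at 498 bp with 117.7, CG10479 at 495 bp with 724.5 and Reph at 495 bp with 278.9.

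The protein-coding genes on either side of the members numbered 791 of the 7843 that border eligible sequence, or 10.1%. They carried a promoter summit about as often as the others: 156 of 791, or 19.7% with an interval of 17.0% to 22.7%, against 20.8% of the genes that border eligible sequence without a member and 23.9% of all protein-coding genes. In the replicates' lists the shares were 20.3% ± 0.696 and 20.5% ± 0.462 (SD, n = 3), a difference smaller than the spread.

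Regulators of embryonic patterning were frequent neighbours. Among 14 gene lists, 4 had at least 33.3% of their bordering genes beside a member, read against the 10.1% of all genes. The share counts genes and is not scaled by the length of eligible sequence beside them, so it was not separated from gap length. Scaled by length, their sequence held 33.4 to 42.3 summits per Mb, against the 19.6 of all eligible sequence. In the replicates' lists the means ran from 30.7 to 39.2 per Mb. The ligand, tracheal, mesoderm and ecdysone cascade lists were above 19.6 per Mb too, and the remaining lists were below it. The lists share some genes, and neighbours share summits, so the counts are not independent and no test was made. Counting only the protein-coding gene with the nearer TSS, shares were 26.7% for segmentation genes, 31.3% for neural factors and 26.2% for homeodomain and T-box genes, against 6.13% of all genes. The lists were chosen with earlier results of these data known.

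Of the 30 bordering segmentation genes, which divide the embryo into repeated units, 13 were beside a member (43.3%, interval 25.5% to 62.6%), at 41.2 summits per Mb. The pair slp1 and slp2 shared the summit given above. At ptc, the receptor of Hedgehog, the strongest of 2 summits lay 5285 bp upstream with 1.96, 1.96 and 2.21. At hry, a pair-rule repressor, the strongest of 3 lay 24934 bp from its nearest TSS on the downstream side with 2.03, 1.86 and 1.95. The others were drm, wg, kni, bcd, odd, sob, knrl, tll and opa. Of the 13, bcd also had a promoter summit.

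Homeodomain and T-box factors, which set regional identity, had 22 of 61 genes beside a member (36.1%, interval 24.2% to 49.4%), at 34.2 summits per Mb. The summit of C15 was the strongest. At Optix, an eye-field gene, the strongest of 3 lay 16866 bp upstream with 2.60, 3.01 and 2.83. At the Hox gene abd-A the strongest of 2 lay 29228 bp from a TSS on the downstream side with 2.79, 3.00 and 2.12. The T-box genes Doc1 and Doc2, active in the amnioserosa and heart, shared a summit with 1.85, 1.60 and 2.10. The Hox genes Dfd and Scr shared a weak one with 0.726, 0.703 and 0.775.

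Neural and proneural factors had 14 of 32 genes beside a member (43.8%, interval 26.4% to 62.3%), at 33.4 summits per Mb. The Sox genes Sox21a and Sox21b shared a summit with 2.15, 2.42 and 2.35, which lay 3508 bp upstream of Sox21a. At tup, a LIM-homeodomain gene of motor neurons and heart, the strongest of 3 lay 9015 bp upstream with 1.45, 1.00 and 1.11. Others included SoxN, pros, nerfin-1, lola, zfh1 and sna.

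Programmed cell death and Notch target genes had 8 of 24 beside a member (33.3%, interval 15.6% to 55.3%), at 42.3 summits per Mb. The 8 genes lie in 2 loci, 4 in the stretch from hid to skl on 3L and 4 in the E(spl) complex on 3R, and share summits, so the interval, which takes them as separate genes, is too narrow. The strongest lay between E(spl)mbeta-HLH and E(spl)malpha-BFM, which are switched on by Notch, with 2.23, 1.99 and 2.13. At hid a summit 7369 bp upstream had 1.74, 1.91 and 1.64. Between grim and rpr the strongest of 3 had 1.14, 1.03 and 1.50.

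The lists of ligands, tracheal, mesoderm and adhesion genes had shares from 19.0% to 25.7%, and the intervals of the tracheal and mesoderm lists hold the 10.1% of all genes. Density was 28.1 summits per Mb for ligands, 29.2 for tracheal and 24.8 for mesoderm genes. Secreted ligands had 9 of 35 genes beside a member (25.7%, interval 12.5% to 43.3%), led by the shared summit of wg and Wnt4 with 1.26, 1.34 and 1.24, then vn, a ligand of the EGF receptor, with 1.12, 1.30 and 1.30. Tracheal genes had 4 of 18 (22.2%, interval 6.41% to 47.6%), with vvl, given above, kni, a gap gene, at 1.36, 0.982 and 0.707, knrl, its relative, at 0.751, 0.662 and 0.731, and sim. Mesoderm and muscle regulators had 5 of 26 (19.2%, interval 6.55% to 39.4%), led by bin, a forkhead gene of the visceral mesoderm, whose strongest summit 1399 bp upstream had 2.20, 2.89 and 3.25. The adhesion gene hbs, of myoblast fusion, followed with 1.85, 1.81 and 1.36, and how, an RNA-binding protein of muscle, had 0.581, 0.713 and 0.785. Axon guidance and adhesion genes had 16 of 84 (19.0%, interval 11.3% to 29.1%) but only 13.1 summits per Mb, below the 19.6 of all eligible sequence. Among them dpr17 had 2.27, 2.29 and 1.92, the semaphorin gene Sema5c 1.42, 1.86 and 1.77, and the Slit receptor gene robo2 had 1.67, 1.53 and 1.93 at the strongest of 3 summits.

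Genes of the ecdysone response, to which Hr3 belongs, were not beside members at a share that could be told from the 10.1% of all genes. Of 27 bordering genes of the ecdysone cascade, 4 were beside a member (14.8%, interval 4.19% to 33.7%). At Blimp-1, a repressor that times the prepupal stage, the summit 19096 bp upstream had 1.46, 1.49 and 1.48. At Kr-h1, a mediator of juvenile hormone, it had 1.11, 0.588 and 1.03 and held a RORE. At the lactate dehydrogenase gene Ldh it had 0.628, 0.746 and 1.04, and at the nuclear receptor Hr38 0.615, 0.732 and 1.05. Of 11 genes of ecdysteroid synthesis, sad was the 1 beside a member, with 0.630, 0.522 and 0.654 at 4418 bp upstream. Density was 24.1 per Mb beside the cascade genes, from 4 summits in 0.166 Mb of eligible sequence, and 2.62 per Mb beside the synthesis genes. Over all eligible sequence it was 19.6 per Mb. The replicates' lists gave 32.1 ± 6.95 per Mb beside the cascade genes (SD, n = 3).

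Lists of general or late functions had shares whose intervals all hold the 10.1% of all genes. Ion channels and neurotransmitter receptors had 3 of 45 (6.67%, interval 1.40% to 18.3%), with 1.43, 1.58 and 1.92 at the acetylcholine receptor gene nAChRalpha7, 1.29, 1.43 and 1.76 at the calcium channel gene Ca-alpha1T, and 0.779, 0.669 and 0.4999 at nAChRalpha5. Cytoplasmic ribosomal protein genes had 4 of 47 (8.51%, interval 2.37% to 20.4%), and the strongest of these, between RpS23 and Sox15, had 1.01, 0.974 and 0.971. Those of RpLP0 and RpL17 had 0.448, 0.739 and 0.852, and 0.803, 0.578 and 0.591. Cuticle protein genes had 1 of 37 (2.70%, interval 0.0684% to 14.2%), Cpr100A, which shares its summit with tll. Proteasome subunit genes had 0 of 9, for which the exact interval reaches 33.6%, and only 0.0035 Mb of eligible sequence.

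**Figure D4:**
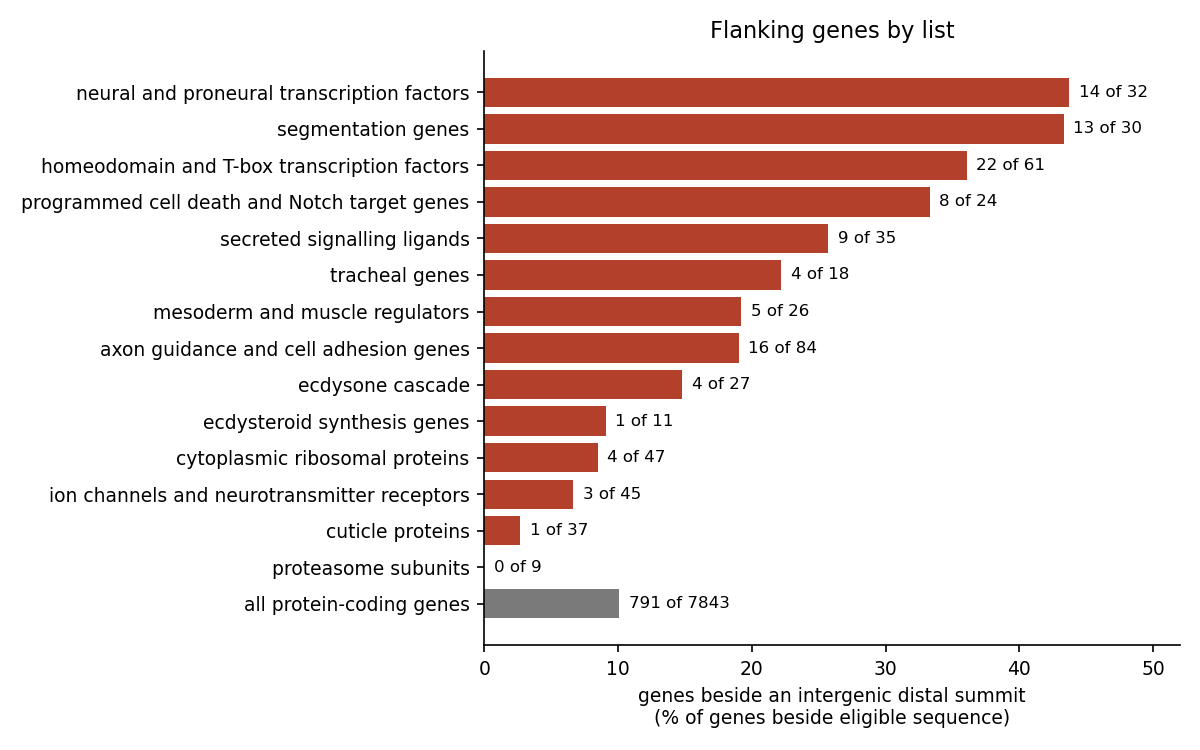
Percent of the genes of each list that border eligible sequence and have an intergenic distal summit in the gap beside them, with the counts, for 14 lists above and all protein-coding genes in grey below. Neural, segmentation, homeodomain and T-box, and cell death and Notch lists reach 33.3% to 43.8%, against 10.1% of all genes. The shares are not scaled by the length of eligible sequence beside the genes.

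The summits lay in narrow A- and T-rich dips. Mean GC content in 51 bases at the summit was 31.7%, against 43.7% at 200 bp to either side and 42.0% and 42.7% at 500 bp to the left and right. In the replicates' lists it was 32.5%, 32.5% and 31.6% at the summit, and 43.6% ± 0.281 and 43.9% ± 0.108 at 200 bp to the left and right (SD, n = 3). Over 201 bases the members averaged 33.8% and eligible sequence over 1000 bp from any summit averaged 40.8%. The dip was not particular to sites between genes, as distal intronic summits averaged 34.1% and promoter summits 34.0% over 201 bases. Base composition can itself affect ChIP-seq signal, and its part in these peaks was not tested.

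**Figure D5:**
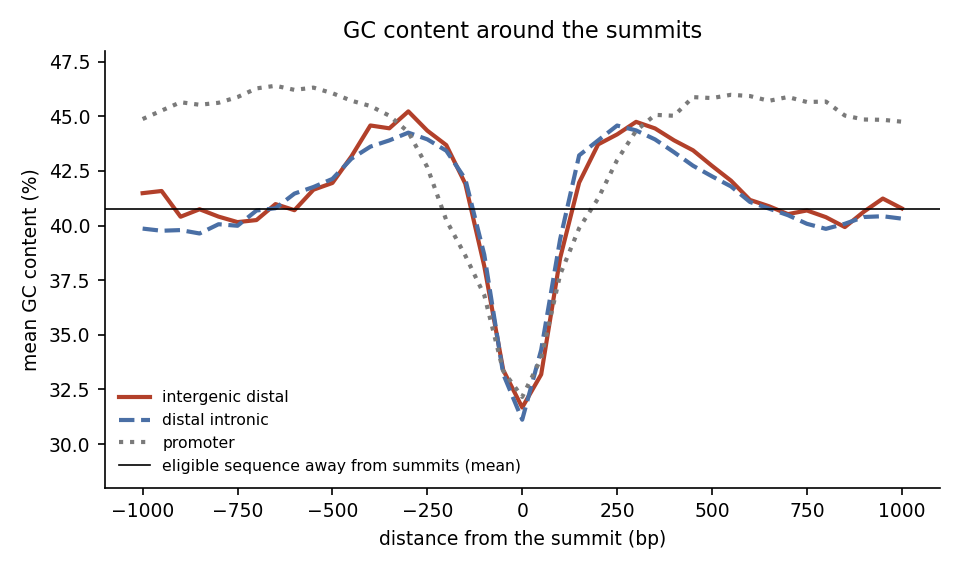
Mean GC content in percent, in windows of 51 bases up to 1000 bp from the summit, for intergenic distal, distal intronic and promoter summits, with the mean of eligible sequence away from summits as a horizontal line. Intergenic distal summits dip to 31.7% at the summit, with 43.7% at 200 bp to either side.

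The RORE was rare. Of the 709 members 8 held it within 100 bp of the summit on either strand, 1.13% with an interval of 0.488% to 2.21%, against 0.564% of windows of the same length 500 bp to either side, 0.651% of eligible windows, 1.62% of distal intronic and 1.05% of promoter summits. The flanking and eligible shares lie inside the interval, so a difference was not detectable with 8 members. Among windows with a GC content between 29.9% and 37.8%, a comparison chosen after seeing the data, the share was 0.270% of 370 members and 0.736% of eligible windows. The replicates' lists gave 1.35% ± 0.366 (SD, n = 3). At vvl the element lies outside the called peak, as stated above. The strongest with the element was that downstream of the nearest vvl TSS, whose sequence is printed above, with 1.40, 1.13 and 1.30. That of Glut4EF had 1.24, 0.927 and 1.00, that of wb, a laminin subunit gene, 1.42, 0.724 and 0.795, and that of lncRNA:CR43801, between Kr-h2 and Kr-h1, 1.11, 0.588 and 1.03. The one upstream of hth, a homeodomain cofactor of Hox proteins, had 0.686, 0.727 and 0.408. The median signal of all 8 members with a RORE, 146.1, stood below the 160.4 of all members. The half-site AGGTCA was in 24 members, 3.39% with an interval of 2.18% to 4.99%, against 4.16% of flanking and 5.12% of eligible windows. It was in 5.71% of distal intronic and 4.39% of promoter summits. The extended site TCAAGGTCA was in 1 member.

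Of the elements of other proteins, TATCGATA and Motif 1 were rarer than at promoter summits. TATCGATA, the site of the factor DREF, was in 6 members, 0.846% with an interval of 0.311% to 1.83%, against 7.25% of promoter summits. Motif 1, a core promoter element, was in 1 member, 0.141%, against 2.21% of promoter summits. A core of the site of the insulator protein CTCF, searched as the forms AGATGGC or AGAGGGC and the forms AGGTGGC or AGGGGGC, was in 61 members, 8.60%, against 8.53% of flanking and 6.94% of eligible windows. In the same middle range of GC content it was in 7.30% of members and 3.72% of eligible windows. Its ratio to the flanks was 1.01, and 1.49 with 50 bp on either side of the summit. TAATTA, a site of many homeodomain proteins, was in 146 members, 20.6%, against 13.2% of flanking and 14.3% of eligible windows. In the middle range of GC content its share was 19.2% of members and 18.4% of eligible windows. GAGAGAG, bound by GAGA factor, was in 1.97% of members, in 4.87% of flanking windows and in 2.15% of eligible windows. In the middle range of GC content the order was the other way, with 1.62% of members and 1.23% of eligible windows, and its ratio to the flanks was 0.406 in the main windows and 0.870 with 200 bp on either side, so no direction is read from it. CACGTG was in 1.69% and CAGGTAG, the site of the early activator Zelda, in 1.13%, against 2.82% and 1.06% of flanking windows.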

How the data were processed

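Peaks of Hr3-GFP ChIP-seq were used for 3 biological replicates of 1 group. Per the labels, sonication broke the chromatin into fragments of 200 to 800 bp. Peak signal is the authors' value for peak strength, used as deposited. Per text files deposited beside the samples, relaxed peaks were called by the authors per replicate and on pooled alignments with a control file, and the authors thresholded reproducible peaks by the irreproducible discovery rate. For aligner, caller, settings and threshold nothing is given in the sources used here, and the control was not analysed here. The dm3 lists were not used.

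Coordinates are on dm6, 1-based. The annotation was Ensembl (BDGP6.54, 18164 genes without transposable elements, 13945 of them protein-coding). The software was pandas 2.3.3, NumPy 2.4.6 and SciPy 1.17.1 under Python 3.11.15, and matplotlib 3.10.9 for figures. A replicate's signal at a summit came from its relaxed peak over that summit, the one with the nearest summit if several, divided by the replicate's median at the peaks found in all 3. Shares and densities per replicate used its 5357 strongest peaks. Medians were compared by the two-sided exact sign-flip permutation test over replicates. Other comparisons are descriptive, with 95% exact binomial intervals. Eligible windows were centred every 50 bp, leaving out centres within 1000 bp of a reproducible summit. The elements were searched on both strands in 201 bases; the RORE can hold AGGTCA and the extended site holds it. Steps were tested on simulated data.

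Members and lists were chosen with earlier results of these data known. Named sites follow a rule: the 20 strongest members, the 6 farthest, the 6 gaps with most members (1 of them is not reported here), 3 of each list with values and the 5 strongest with a RORE. For 15 list genes the current symbol replaced an older one. Peaks are not independent replicates, and nothing says whether replicates came from separate cultures, so the spread between them may be technical. Other TSS distances, windows, gene sets, signal cuts and each replicate left out were tried; GC-matched windows and sequence without transposable elements were added after seeing the data.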

Additional observations from a re-analysis of the deposited data

How the results depend on the processing

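The signal contrasts, as means over the replicates or in the pooled list, kept their sign in every alternative. Against promoter summits the log2 value ran from -0.20 to -0.31 over all alternatives, and from -0.25 to -0.30 without each replicate. Against distal intronic summits it ran from -0.03 to -0.09, and from -0.03 to -0.08 without each replicate. Without replicate 3 this contrast was -0.03 ± 0.07 (SD over the replicates kept), and the replicates kept did not share a sign.

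The number of members was 1086 with a TSS distance of 200 bp and 288 in the 50% of the list with higher signal. Their share was 20.3% at 200 bp, 10.8% at 1000 bp, 16.2% with protein-coding genes alone and 10.8% at higher signal. Median distance was 1197 bp, 3663 bp, 4255 bp and 2377 bp in the same order. The upstream share was 76.4% at 200 bp, 60.8% at 1000 bp and 62.8% at higher signal, against 60.8%, 57.0% and 58.8% of the eligible bases. Density at 500 to 1000 bp was 43.6 per Mb with protein-coding genes alone and 20.5 at higher signal, and beyond 20 kb it was 5.35 and 0.775. Flanking genes had a promoter summit in 10.7% at 200 bp, 21.6% at 1000 bp and 12.7% at higher signal. Genes beside a member were 6.13% by the nearer TSS alone and 4.83% at higher signal. The list cut to its stronger part and the lists without a replicate hold fewer peaks by construction.

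Without each replicate the number ran from 509 to 571, the share from 11.9% to 12.7%, the median distance from 2487 to 2612 bp, the upstream share from 63.7% to 65.7%, the near density from 31.9 to 40.0 and the far density from 1.55 to 1.81 per Mb, the promoter-bound share from 16.4% to 18.3% and the genes beside a member from 8.08% to 8.66%. The RORE share over the flank share was 2.00, and 1.10 to 4.00 over the alternatives. GAGAGAG over its flanks was 0.406, and 0.870 with 200 bp windows.

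No paired analysis between groups was possible because the labels give 1 group; the sign-flip test pairs summit classes within each replicate. The number of replicates limits the exact test, and the small counts limit the elements and lists.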

Other observations

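The stretch on 3L from hid to skl, 272.2 kb that holds the cell death genes hid, grim, rpr and skl, was noticed after its values were seen. It held 22 intergenic distal summits among 23 summits of all kinds. Signals there lay between 108.1 and 460.8, and their median of 155.5 was close to the 160.4 of all members. With 231.7 kb of eligible sequence the density was 95.0 per Mb, against 19.6 per Mb over the genome.

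The 5 large chromosome arms differed more in intergenic distal summits than in the others. Density was 25.9 per Mb on 2L and 25.1 on 3L, against 12.8 on 2R, 14.9 on X and 17.1 on 3R. The replicates' lists gave 24.6 ± 0.788, 24.4 ± 1.08, 12.6 ± 0.881, 14.7 ± 0.660 and 17.3 ± 0.495 for 2L, 3L, 2R, X and 3R (SD, n = 3). Within 5000 bp of a TSS the densities were 35.6, 41.8, 25.8, 23.02 and 24.7 in the same order. Summits of the other classes ranged from 46.1 to 50.1 per Mb of remaining sequence on these 5 arms. The small arm 4 went the other way, with 24.5 members per Mb, from 6 members, and 13.8 other summits per Mb, from 15.

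The 6-base words most in excess at members of odd rank, against their flanks, were all made of A and T. The first, AAATAT, was within 50 bp of 35.2% of these summits and 16.2% of their flanks. In members of even rank it was at 37.6% of summits and 17.2% of flanks. The summits lie in the A- and T-rich dip given above, where words of A and T are more common by composition alone. Members of odd and even rank come from the same set, so the even ranks are no separate check. Words were not compared with GC-matched windows.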
